A study of Mus musculus with 12 samples.

Results

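The genes described here are 7 Toll-like receptors (Tlr1, Tlr2, Tlr3, Tlr4, Tlr6, Tlr7 and Tlr9), the lipopolysaccharide co-receptors Cd14 and Ly96, and the adaptor Myd88, in mouse bone-marrow-derived macrophages given IL-4 (interleukin-4). The 10 genes were taken by name: every array probe that carried a listed gene name was used, whatever its values. All 10 were among the 18427 genes tested. They had 12 probes, of which 11 were kept, because an additional Tlr4 probe (to transcript AK014533) was well above background on 0 of the 12 arrays. The probe used for each gene was well above background on all 12 arrays and saturated on none.

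Macrophages were grown from the marrow of mice of 2 inbred strains, C57BL6/J and Balb/cAnNCrl, written C57BL6 and Balb/c below, with no altered allele stated in the labels. Every sample was a pool of 2 male mice and 1 female mouse 8 to 12 weeks old, and all cells were cultured with CSF1 (colony-stimulating factor 1) at 200 ng/ml. In each strain 2 samples were left without IL-4 for 18 h (mock), 2 received IL-4 at 10 ng/ml for 4 h and 2 received it for 18 h, starting on day 7. Each sample was hybridised to its own 1-colour Agilent array, giving 12 arrays in 6 groups of 2. The 4 h samples therefore had no mock of their own duration. The treatment protocol also speaks of lipopolysaccharide, but no label of these 12 samples names it as given. Replicates are taken to come from separate experiments with different littermates, since the series text describes 2 independent experiments. No label ties a replicate number to an experiment. On that reading, p-values measure the spread between pools. They do not measure the spread between single mice.

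Toll-like receptors sense microbial products. Tlr2 pairs with Tlr1 or Tlr6 at the cell surface and recognises bacterial lipopeptides, while Tlr4 recognises lipopolysaccharide that Cd14 hands to it through the bound cofactor Ly96 (MD-2). Tlr3, Tlr7 and Tlr9 sit in endosomes and detect double-stranded RNA, single-stranded RNA and unmethylated CpG DNA. All but Tlr3 signal through Myd88, which leads to NF-kappa-B, and macrophages express most of these receptors. IL-4 acts on macrophages through the transcription factor STAT6.

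RefSeq promoter windows (assembly GRCm38.p6, 250 bases before to 50 bases after the annotated start) were used for 6 of the 10 genes, in 8 windows. None was used for Tlr4, Tlr7, Cd14 and Ly96. The windows of Tlr2, Tlr3 and Myd88 are shown up to base +2, because these genes were lower after 18 h of IL-4 over both strains and each holds a match. Tlr2 lies at chr3:83841607-83841858, Tlr3 at chr8:45410379-45410630 and Myd88 at chr9:119340017-119340268, all on the minus strand, and each is read 5′ to 3′ on the strand of its gene. Capitals mark kappa-B letters in Tlr2 and Tlr3 and the interferon-stimulated response element in Myd88.
Tlr2: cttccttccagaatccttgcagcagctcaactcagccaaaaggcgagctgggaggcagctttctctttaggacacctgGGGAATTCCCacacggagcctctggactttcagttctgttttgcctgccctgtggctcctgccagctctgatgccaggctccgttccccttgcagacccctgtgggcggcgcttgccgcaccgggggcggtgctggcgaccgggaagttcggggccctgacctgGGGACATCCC
Tlr3: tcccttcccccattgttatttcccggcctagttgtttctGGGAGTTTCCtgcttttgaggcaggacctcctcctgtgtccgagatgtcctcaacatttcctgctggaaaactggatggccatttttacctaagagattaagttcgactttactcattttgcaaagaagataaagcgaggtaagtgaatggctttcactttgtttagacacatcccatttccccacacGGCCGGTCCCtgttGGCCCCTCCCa
Myd88: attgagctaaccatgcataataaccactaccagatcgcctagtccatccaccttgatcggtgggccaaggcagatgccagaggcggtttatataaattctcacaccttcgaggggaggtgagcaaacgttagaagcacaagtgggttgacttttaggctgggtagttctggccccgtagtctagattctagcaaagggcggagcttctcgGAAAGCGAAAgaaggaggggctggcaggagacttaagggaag

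The kappa-B letters searched were GGGANNNNCC on both strands, found in 20.7% of all 32851 windows. Tlr2 held them from bases -172 and -8 relative to its start, and Tlr3 from -211, -23 and -9. The response element was searched as GAAANNGAAA, found in 3.44% of all windows. Myd88 held it from base -40, and Tlr6 held 2 overlapping matches from bases -116 and -110. The letters GAGGAAG of PU.1, a factor of the macrophage lineage, were found in 13.6% of all windows and in those of Tlr1 (base -23) and Tlr9 (bases -112 and +12). The STAT6 letters TTCNNNNGAA, found in 6.95% of all windows, matched 0 of the 8. These matches are descriptions of the letters in these windows and not sites. The matches depended on the spelling: 10 spellings were searched and the 4 above, 1 per factor, were kept after the matches of all were seen. Of the others, GGAANNNCCC (5.56% of windows) matched Tlr2, Tlr3 and Tlr6, a stricter kappa-B palindrome (0.341%) matched none of the genes, and a further kappa-B spelling (0.411%) matched Tlr3 alone. A response element longer by 1 base (0.819%) matched none, so the Myd88 letters marked above are lost under it, and a longer PU.1 spelling (4.55%) matched Tlr9 and not Tlr1. TTCNNNGAA, a STAT palindrome with a spacer shorter by 1 base (8.3%), matched Tlr1, Tlr6 and Myd88.

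Across the 12 arrays, between 54.9% and 69.7% of spots were well above background and the 75th percentile of the probe signal ran from 1143 to 1585 scanner units. Replicates correlated at 0.974 to 0.989 over genes. Arrays lay 4 to a slide on 3 slides: slide 1 held Balb/c arrays only, slide 3 C57BL6 arrays only, and slide 2 held 2 arrays of each strain, so slide and strain were largely confounded. Slides were also uneven over the IL-4 comparisons. Both Balb/c mock arrays lay on slide 1 and both C57BL6 18 h arrays on slide 3, while each other group was split between slides. All 7 macrophage markers examined (Adgre1, Csf1r, Cd68, Itgam, Mertk, Fcgr1 and Lyz2) were well above background on all 12 arrays. So were 2 of 4 T cell, 3 of 4 B cell, 3 of 5 neutrophil and 2 of 5 dendritic cell markers. Of the other lists, 1 of 3 eosinophil, 1 of 3 erythroid, 1 of 4 stromal and 0 of 3 mast cell or basophil markers were. Among neutrophil markers, S100a8, S100a9 and Ngp were above background on all 12 arrays, Camp on 8 and Elane on 1. The median of S100a9 lay 2.37 log2 units above the 75th percentile of the array. Among T cell markers, Cd3e and Lck were above background on all 12 arrays, Cd3g on 2 and Cd3d on 0. In such bulk RNA, fewer cells of a kind and less RNA per cell cannot be told apart.

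Levels below are log2 signal relative to the 75th percentile of the same array, so 0 is that percentile, and a change is a difference of group means with its standard error (SE) from limma. A gene counts as called where limma's p, adjusted by Benjamini-Hochberg over all 18427 genes, was below 0.05. Levels of different genes come from different probes and are not compared. Within a strain, and over both strains, the 4 h and 18 h comparisons share their mock arrays.

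Tlr2 was lower after IL-4 in both strains and at both times, by 4.65-fold to 9.23-fold, and was the only gene of the 10 called at 4 h. In C57BL6 its level was 4.30 and 4.84 on the mock arrays (replicates 1 and 2), 1.73 and 2.00 after 4 h, and 1.16 and 1.56 after 18 h. In Balb/c it was 4.87 and 4.47 in mock, 2.66 and 2.24 after 4 h, and 1.73 and 1.26 after 18 h. Every mock array lay above every IL-4 array, in each strain and across both strains.

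The fitted change of Tlr2 in C57BL6 was -2.70 ± 0.29 (SE, n = 2 arrays a group) at 4 h, a 6.50-fold lower level (limma, adjusted p = 0.00418), and -3.21 ± 0.29 at 18 h, 9.23-fold lower (adjusted p = 0.00128). In Balb/c it was -2.22 ± 0.29 at 4 h, 4.65-fold lower (limma, adjusted p = 0.0139), and -3.17 ± 0.29 at 18 h, 9.01-fold lower (adjusted p = 0.00148). The Balb/c call at 4 h ended when Balb/c mock replicate 1, Balb/c mock replicate 2 or Balb/c 4 h replicate 2 was left out (limma, adjusted p = 0.0952, 0.052 and 0.0546). When only the arrays compared entered the fit, Tlr2 missed the threshold in C57BL6 at 4 h and in Balb/c at 4 h and 18 h (adjusted p = 0.0666, 0.405 and 0.0882), and with normexp background correction it missed it in Balb/c at 4 h (adjusted p = 0.123). Over both strains the change was -2.46 ± 0.20 at 4 h and -3.19 ± 0.20 at 18 h (limma, adjusted p = 0.000602 and 0.000115), and these 2 calls held under every alternative tried.

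The Tlr2 probe (chr3:83941473-83941532, minus strand, in the scanner files' coordinates, whose build is not given in the sources used here) was spotted 10 times on each array. After outlier spots were left out, 8 or 9 spots remained, and their SD was 0.0173 to 0.0547 on the log2 scale. On all 4 mock arrays, and on none of the IL-4 arrays, the Tlr2 signal was marked in the scanner files as scaled up from the scan at lower detector gain, and the part of that scan in the change was not tested. Within slides, with 1 array on each side, the C57BL6 change of Tlr2 at 4 h was -2.56 on slide 2 and -2.84 on slide 3.

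Neither partner of Tlr2 passed the test after IL-4. Tlr1 in C57BL6 was at 2.24 and 2.45 in mock, 2.64 and 2.82 after 4 h, and 2.82 and 2.95 after 18 h, with every IL-4 array above both mock arrays. In Balb/c it was at 2.68 and 2.30 in mock, 2.40 and 2.23 after 4 h, and 2.48 and 2.29 after 18 h, and the groups overlapped. The C57BL6 change was 0.38 ± 0.19 at 4 h (limma, adjusted p = 0.37) and 0.54 ± 0.19 at 18 h (adjusted p = 0.173), and it passed the test only with the replicate number as a block (adjusted p = 0.047 and 0.0179).

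Tlr6, whose gene neighbours Tlr1 with 0 protein-coding genes between them, was called between strains and not for IL-4. In C57BL6 it was at 1.08 and 1.47 in mock, 0.94 and 1.24 after 4 h, and 1.11 and 1.27 after 18 h. On the Balb/c arrays it was at 2.07 and 1.72, at 1.87 and 1.31, and at 1.91 and 1.54. Balb/c lay above C57BL6 within each condition, though the lowest Balb/c array (1.31) fell below the highest C57BL6 array (1.47). Its IL-4 changes ran from -0.31 to -0.08 and none was called.

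**Figure D1:**
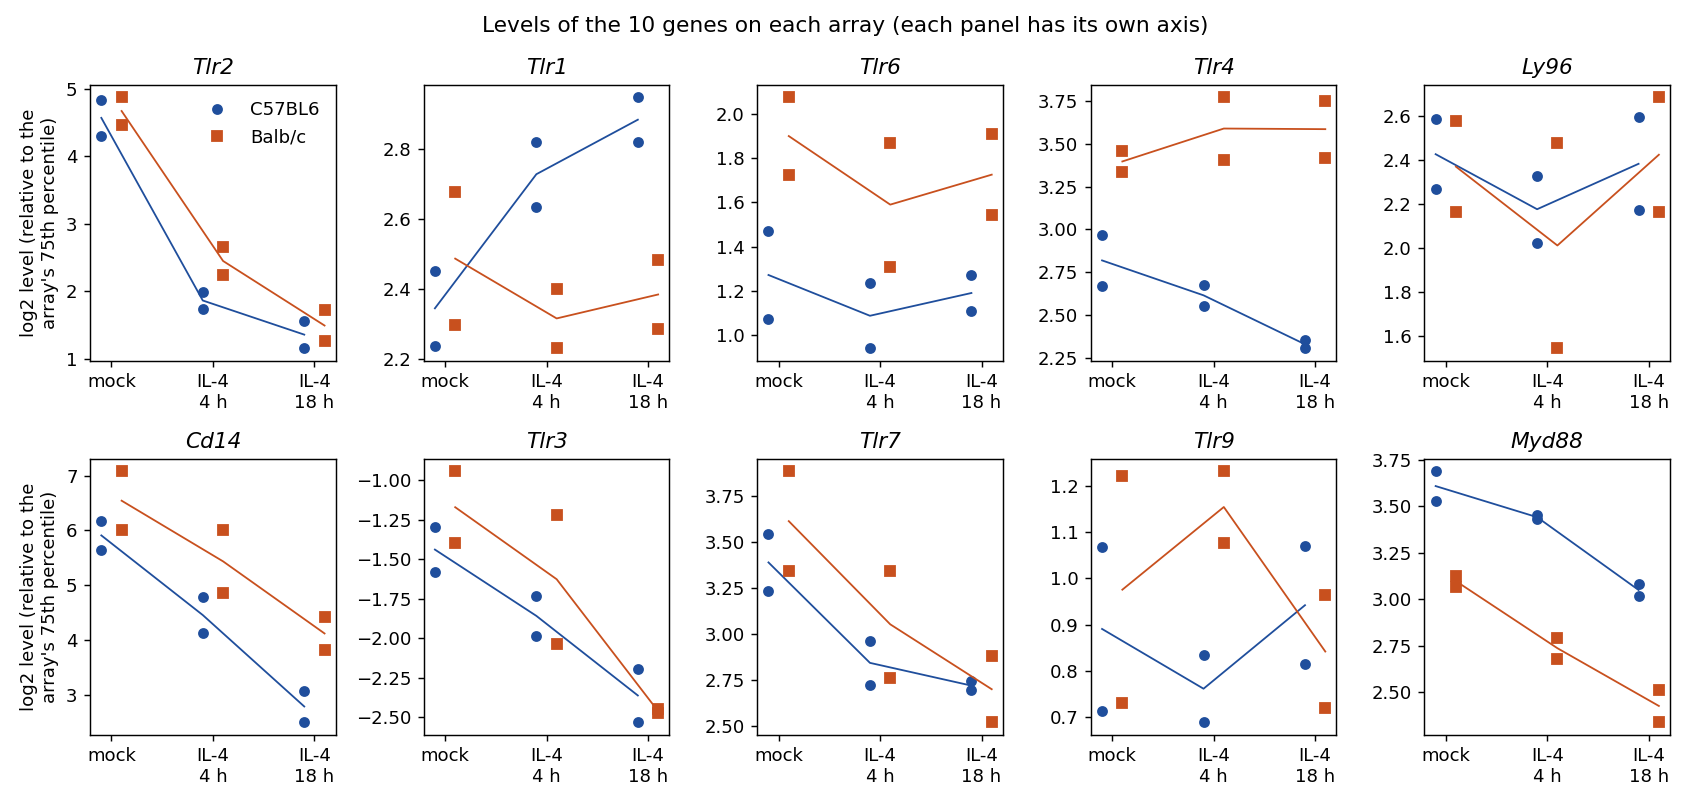
Log2 level of each of the 10 genes on each of the 12 arrays (y axis, relative to the array's 75th percentile, own scale in each panel) by condition (x axis), with circles for C57BL6, squares for Balb/c and lines through the means of 2 arrays. Tlr2 and Cd14 step down from mock to IL-4 in both strains, while Tlr4, Tlr6 and Myd88 keep the strains apart in each condition.

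Among the genes of the lipopolysaccharide receptor, Cd14 was lower by 8.67-fold in C57BL6 and 5.34-fold in Balb/c at 18 h, while Tlr4 and Ly96 were not called for IL-4 in either strain. Cd14 in C57BL6 was at 6.18 and 5.64 in mock, 4.78 and 4.14 after 4 h, and 3.08 and 2.51 after 18 h. On the Balb/c arrays it was at 6.01 and 7.08, then 4.87 and 6.00, then 3.82 and 4.43. Within each strain the 18 h arrays lay below both the 4 h and the mock arrays. At 4 h the arrays lay below both mock arrays of their strain too, by the narrowest margin for Balb/c 4 h replicate 2 (6.00, beside 6.01 for Balb/c mock replicate 1).

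The Cd14 change at 18 h was -3.12 ± 0.50 in C57BL6 (limma, adjusted p = 0.0135) and -2.42 ± 0.50 in Balb/c (adjusted p = 0.0403). The C57BL6 call ended when any of the 4 arrays compared was left out (adjusted p = 0.0591 to 0.11), and the Balb/c call ended without any array but the 2 Balb/c 4 h arrays (the lowest and highest adjusted p over all 12 were 0.0297 and 0.206). Over both strains the 18 h change was -2.77 ± 0.36, 6.81-fold lower (limma, adjusted p = 0.00225), and was called under every alternative tried. With normexp correction neither strain's call remained (limma, adjusted p = 0.163 and 0.369), and the Balb/c call also ended with no filter (0.075) or only the arrays compared (0.197). At 4 h the Cd14 difference from mock was -1.45 ± 0.50 in C57BL6, -1.11 ± 0.50 in Balb/c and -1.28 ± 0.36 over both, which missed the threshold (limma, adjusted p = 0.202, 0.536 and 0.079). With the replicate number as a block all 3 passed it (adjusted p = 0.00521, 0.0178 and 0.00153).

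The Cd14 signal was read from the lower-gain scan on all mock and 4 h arrays and on Balb/c 18 h replicate 2, and from the other scan on the 3 remaining 18 h arrays. Balb/c 18 h replicate 2, read from the same scan as the mock arrays, lay at 4.43 against 6.01 and 7.08 in mock. The part of the scan in the change was not tested.

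Tlr4, the signalling receptor for lipopolysaccharide, was called between the strains and not for IL-4. In C57BL6 it was at 2.67 and 2.97 in mock, 2.55 and 2.67 after 4 h, and 2.30 and 2.35 after 18 h. The Balb/c arrays were at 3.34 and 3.46, then 3.77 and 3.41, then 3.75 and 3.42. All 6 Balb/c arrays lay above all 6 C57BL6 arrays. On Balb/c 4 h replicate 2 and Balb/c 18 h replicate 1 a share of 0.1 of the Tlr4 spots came from the lower-gain scan, whose part was not tested. After 18 h of IL-4 its difference from mock was -0.49 ± 0.19 in C57BL6 and 0.19 ± 0.19 in Balb/c (limma, adjusted p = 0.237 and 0.728).

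Ly96, without which Tlr4 does not respond to lipopolysaccharide, showed no called change. Its 12 levels ran from 1.55, on Balb/c 4 h replicate 2, to 2.68, on Balb/c 18 h replicate 1, and all groups overlapped. The 18 h change was -0.04 in C57BL6 (95% confidence interval -0.84 to 0.75) and 0.05 in Balb/c (-0.74 to 0.85).

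Of the endosomal receptors, Tlr3 and Tlr7 were lower after 18 h over both strains and Tlr9 was not called. Tlr3 in C57BL6 was at -1.58 and -1.29 in mock, -1.73 and -1.98 after 4 h, and -2.53 and -2.19 after 18 h. Its Balb/c arrays were at -1.40 and -0.94, then -2.03 and -1.22, then -2.48 and -2.45. The 4 arrays at 18 h were the lowest of the 12. The change over both strains was -1.11 ± 0.21, 2.16-fold lower (limma, adjusted p = 0.013), and the call ended without C57BL6 18 h replicate 1 (adjusted p = 0.0593) or C57BL6 mock replicate 2 (adjusted p = 0.0535).

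A further Tlr3 probe, kept but dimmer, moved in the same direction by -1.38 ± 0.20 at 18 h over both strains (limma fit on probes, adjusted p = 0.00453). Within strains, the Tlr3 difference from mock at 18 h was -0.92 ± 0.29 in C57BL6 and -1.29 ± 0.29 in Balb/c and missed the threshold (limma, adjusted p = 0.139 and 0.0545). With the replicate block both passed it (adjusted p = 0.0453 and 0.0207). The dimmer probe was called in Balb/c (-1.56, adjusted p = 0.0248) and not in C57BL6 (-1.21, adjusted p = 0.0605) without the block. The brighter probe lies at chr8:44182210-44182269 and the dimmer at chr8:44181930-44181989, both on the minus strand.

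Tlr7 in C57BL6 was at 3.23 and 3.55 in mock, 2.72 and 2.96 after 4 h, and 2.69 and 2.75 after 18 h. In Balb/c it was at 3.88 and 3.34, then 3.34 and 2.76, then 2.88 and 2.52. All 4 arrays at 18 h lay below all 4 mock arrays, and the 4 h arrays overlapped both. The change at 18 h over both strains was -0.79 ± 0.19, 1.73-fold lower (limma, adjusted p = 0.0382). The call ended without any array but Balb/c mock replicate 2 and the 2 Balb/c 4 h arrays (over all 12, adjusted p = 0.0292 to 0.13), and it ended with normexp correction (-0.44, adjusted p = 0.114), median scaling (0.12), no filter (0.0822) or only the arrays compared (0.0543). On C57BL6 mock replicate 2 and Balb/c mock replicate 1 its signal came from the lower-gain scan, whose part was not tested.

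Tlr7 was not called within a strain in the fit without a block, where the 18 h change was -0.67 in C57BL6 and -0.91 in Balb/c (limma, adjusted p = 0.243 and 0.137). With the replicate block it was called in both strains at 4 h (adjusted p = 0.0277 and 0.0432) and at 18 h (adjusted p = 0.0148 and 0.00657). Tlr9 ran from 0.69 to 1.23 over the 12 arrays, the narrowest range of the 10 genes. Its change at 18 h over both strains was -0.04 (95% confidence interval -0.40 to 0.32).

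Myd88, the shared adaptor, was lower after 18 h of IL-4 and lower in Balb/c than in C57BL6. In C57BL6 it was at 3.69 and 3.53 in mock, 3.45 and 3.43 after 4 h, and 3.02 and 3.08 after 18 h. The Balb/c arrays were at 3.13 and 3.07, then 2.68 and 2.79, then 2.34 and 2.51. Within each strain the 3 conditions did not overlap and stood in the order mock, 4 h, 18 h.

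The Myd88 change at 18 h was -0.56 ± 0.14 in C57BL6 (limma, adjusted p = 0.0716) and -0.67 ± 0.14 in Balb/c (adjusted p = 0.0411). The Balb/c call ended whichever array was left out (adjusted p = 0.0522 to 0.225) and with normexp correction (0.488), median scaling (0.189), no filter (0.144) or only the arrays compared (0.364), and the C57BL6 change passed the test with the replicate block (adjusted p = 0.022). Over both strains the change was -0.62 ± 0.10, 1.53-fold lower (limma, adjusted p = 0.00689), and was called without any single array. It was not called with normexp background correction, where the value was -0.27 (limma, adjusted p = 0.266) beside a median of -0.36 over all genes. The Myd88 probe (chr9:119016408-119016467, minus strand) was spotted 10 times, with an SD between spots of 0.0317 to 0.114. On C57BL6 mock replicates 1 and 2 a share of 0.2 and 0.3 of its spots came from the lower-gain scan, and on the other arrays 0. The part of that scan in the Myd88 differences was not tested.

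**Figure D2:**
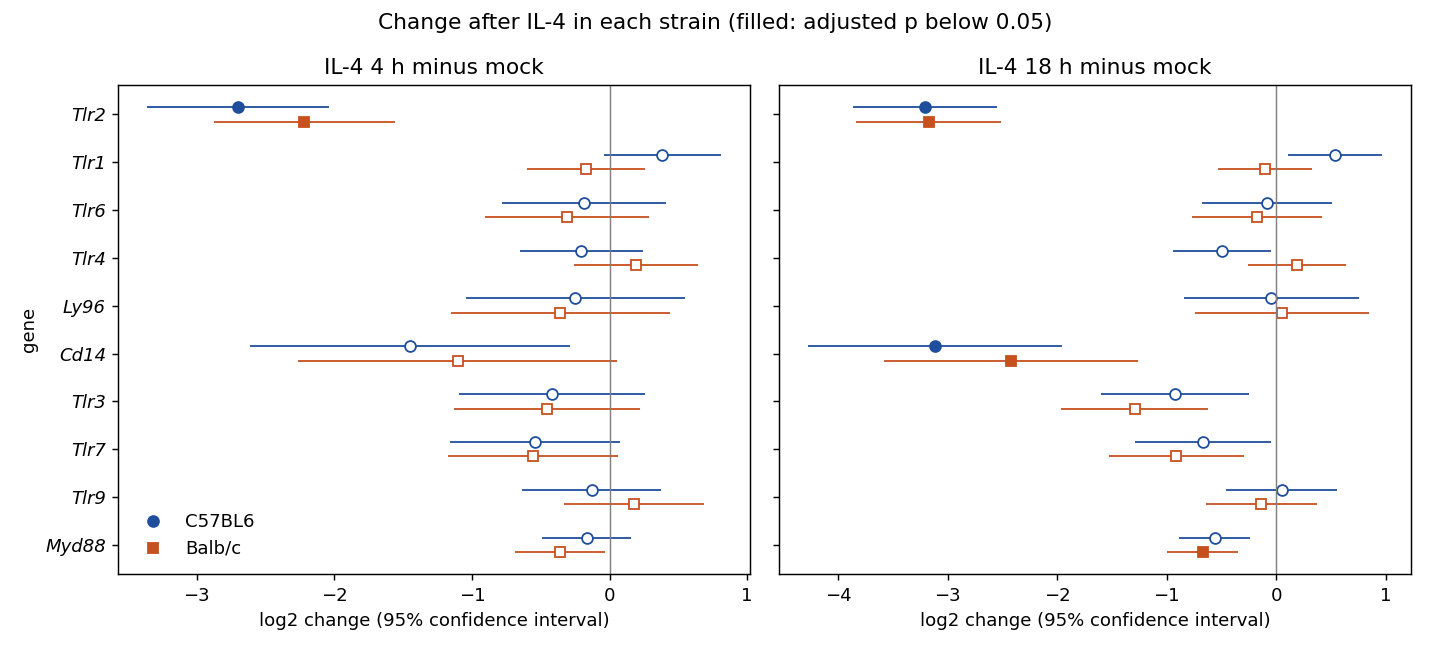
Log2 change after 4 h (left) and 18 h (right) of IL-4 against mock for each of the 10 genes (y axis), with limma's 95% confidence interval, in C57BL6 (circles) and Balb/c (squares). Filled symbols had an adjusted p below 0.05: Tlr2 in all 4 comparisons, Cd14 in both strains at 18 h and Myd88 in Balb/c at 18 h.

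Counted over the 10 genes, IL-4 calls were few at 4 h, more numerous at 18 h, and all lower. In C57BL6, 1 was called at 4 h, where 3.36% of all genes tested were called and 1.76% called lower, and 2 at 18 h (4.46% of all genes, 2.77% lower). In Balb/c, 1 was called at 4 h (1.42% of all genes, 0.472% lower) and 3 at 18 h (3.83%, 2.44% lower). Over both strains 1 was called at 4 h (6.68% of all genes, 3.83% lower), and 5 at 18 h, where 9.45% of all genes were called and 6.04% were called lower.

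Treating the replicate number as a block raised these counts, except the 5 over both strains at 18 h, and raised the share of all genes called. In C57BL6 it called 4 of the 10 at 4 h, 3 of them lower (16.7% of all genes, 9.91% lower), and 6 at 18 h, 5 of them lower (17.6%, 11% lower). For Balb/c the counts were 3 and 5, all lower (7.13% and 14.8% of all genes, 3.77% and 8.36% lower). Over both strains it called 3 at 4 h (23.4%, 13.5% lower) and 5 at 18 h (25%, 14.6% lower), again all lower. Tlr1 in C57BL6 was the only gene of the 10 called higher in these blocked fits, at both times, where 6.78% and 6.56% of all genes were called higher.

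Of the marker lists, B cell, neutrophil and macrophage sums were lower at 18 h than in mock in both strains with no overlap, and the other lists did not share that pattern. The B cell markers summed, in multiples of the 75th percentile, to 2.28 to 3.27 in C57BL6 mock and 1.06 to 1.63 after 18 h, and to 1.09 to 1.69 in Balb/c mock and 0.977 to 1.06 after 18 h. The neutrophil markers summed to 11.7 to 14.5 in C57BL6 mock and 7.59 to 10.9 after 18 h, and to 3.30 to 3.92 and 1.91 to 2.88 in Balb/c. The macrophage markers summed to 628 to 754 in mock and 556 to 644 after 18 h over both strains. The part of these 3 lists in the lower levels at 18 h was not tested. T cell sums overlapped in C57BL6 (0.177 to 0.213 in mock, 0.161 to 0.247 after 18 h), and dendritic cell sums overlapped in both strains. Stromal sums were lower after 18 h in C57BL6 (0.188 to 0.254 against 0.089 to 0.0973) and higher in Balb/c (0.118 to 0.119 against 0.126 to 0.143).

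Between 4 h and 18 h of IL-4, 0 of the 10 genes were called over both strains by limma, where 3.72% of all genes were. Of all genes, 16.7% had an unadjusted p below 0.05, as had 4 of the 10. Those were Cd14 (-1.49 ± 0.36, adjusted p = 0.0643), Tlr2 (-0.73 ± 0.20, adjusted p = 0.101), Myd88 (-0.35 ± 0.10, adjusted p = 0.108) and Tlr3 (-0.67 ± 0.21, adjusted p = 0.137). Every Tlr2 and every Tlr3 array at 18 h lay below every 4 h array. For Tlr2 the margin was very narrow, with Balb/c 18 h replicate 1 at 1.728 and C57BL6 4 h replicate 1 at 1.735. With the replicate block the same 4 were called, all lower at 18 h (limma, adjusted p = 0.00142 for Cd14, 0.00341 for Tlr2, 0.0317 for Myd88 and 0.0444 for Tlr3), beside 16.6% of all genes, 8.72% lower.

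The remaining question was whether the strains differed. Over mock, 4 h and 18 h together, Balb/c had 1.92-fold more Tlr4 and 1.47-fold more Tlr6, and 1.53-fold less Myd88. The Balb/c minus C57BL6 difference was 0.94 ± 0.11 for Tlr4, 0.55 ± 0.15 for Tlr6 and -0.61 ± 0.08 for Myd88 (limma, adjusted p = 0.000924, 0.0379 and 0.00162). These 3 of 10 stood beside 17.9% of all genes called for strain, 7.19% higher and 10.7% lower in Balb/c. Tlr4 kept its call under every alternative tried, Myd88 under all but normexp correction (-0.63, adjusted p = 0.0888).

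The Tlr6 call ended without any array but Balb/c mock, 4 h or 18 h replicate 2 or C57BL6 mock replicate 2 (over all 12, limma, adjusted p = 0.0209 to 0.102), and with normexp correction (0.12), median scaling (0.085), no filter (0.0648) or the slide block (0.0762). Cd14 was 0.98 ± 0.29 higher in Balb/c and missed the threshold (adjusted p = 0.0527). Same-numbered arrays of a strain deviated together (correlation 0.155 to 0.653). This fit counts them as independent, so its p-values may be too small. The highest correlation in each strain was for groups split over the same slides: 0.622 for C57BL6 mock and 4 h, 0.653 for Balb/c 4 h and 18 h. The part of slide in these correlations was not tested.

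In mock cells alone, limma called 0 of the 10 for strain, beside 5.37% of all genes. Of all genes, 20.1% had an unadjusted p below 0.05, as had 3 of the 10. Those were Tlr4 (0.58 ± 0.19, adjusted p = 0.148), Tlr6 (0.63 ± 0.26, adjusted p = 0.227) and Myd88 (-0.51 ± 0.14, adjusted p = 0.0864).

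Slide 2 held both strains at 4 h only, with 1 array of each. There Balb/c minus C57BL6 was 0.85 for Tlr4, 0.37 for Tlr6 and -0.66 for Myd88, in the same directions as over all arrays. Elsewhere slide and strain cannot be told apart. The neutrophil markers summed to 7.59 to 14.5 over the C57BL6 groups and 1.91 to 4.34 over the Balb/c groups. Eosinophil sums, at much lower levels, lay apart too (0.156 to 0.257 in C57BL6 and 0.0474 to 0.152 in Balb/c). Sums of the other lists overlapped between the strains, though some lay apart within a condition. The part of these gaps in the strain differences was not tested.

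**Figure D3:**
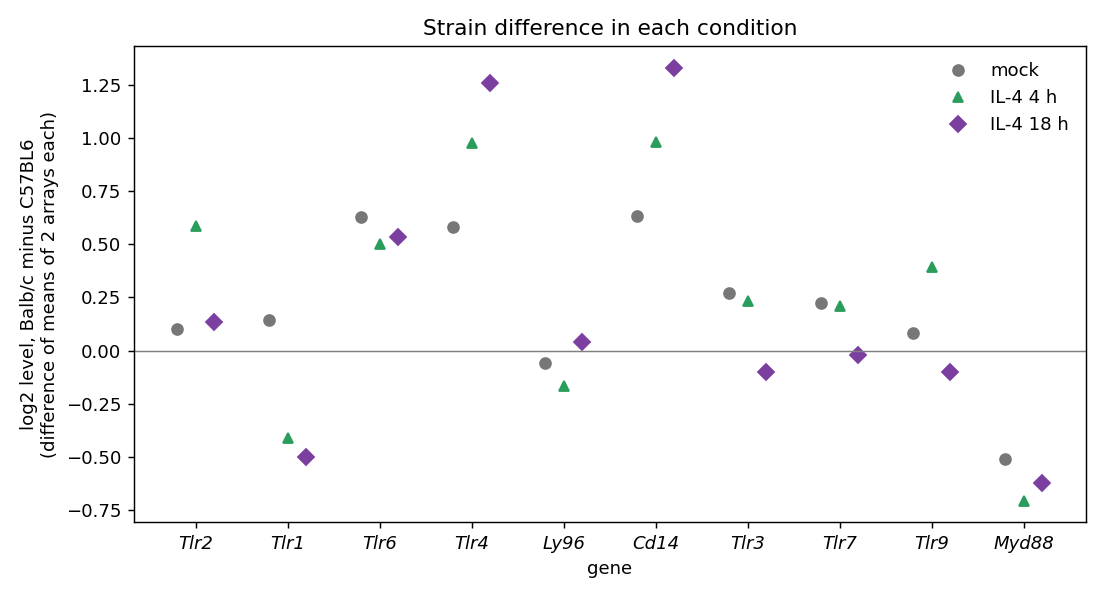
Balb/c minus C57BL6 difference of mean log2 levels (y axis, 2 arrays on each side) for each of the 10 genes in mock (circles), after 4 h (triangles) and after 18 h (diamonds) of IL-4. Tlr4 lies at 0.58, 0.98 and 1.26 and Myd88 at -0.51, -0.70 and -0.62.

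For Tlr4 the strain difference was 0.58 in mock and 1.26 after 18 h of IL-4, but the test of the change in that difference was not passed. The strain difference of the 18 h change was 0.68 ± 0.27 for Tlr4 (unadjusted p = 0.0384 by limma, adjusted p = 0.921) and -0.64 ± 0.26 for Tlr1 (unadjusted p = 0.04, adjusted p = 0.921). Limma called 0 of the 10 and 0% of all genes for such a difference at either time, and the replicate block also called 0. For Tlr2 the strain difference of the change was 0.48 (95% confidence interval -0.45 to 1.42) at 4 h and 0.03 (-0.90 to 0.97) at 18 h.

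Around these genes, 39 others of the pathway were tested, in 5 lists by role. Over both strains limma called 2 higher and 3 lower at 4 h, where 6.68% of all genes were called and 3.83% called lower, and 2 higher and 7 lower at 18 h (9.45% of all genes, 6.04% lower). Their median log2 change was -0.03 at 4 h and -0.15 at 18 h, beside 0.0033 and -0.01 over all genes. The lists were chosen with earlier results of these data known.

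Of the other receptors, Tlr5 and Tlr8 were tested and neither was called, while Tlr11, Tlr12 and Tlr13 were not analysed here. Tlr5, the flagellin receptor, had a difference from mock of -1.45 at 18 h over both strains (limma, adjusted p = 0.0524). Of 8 accessory and trafficking proteins, 1 was called lower at each time. It was Slc15a4, an endolysosomal transporter needed for endosomal receptor signalling, at -0.85 ± 0.14 at both 4 h and 18 h (limma, adjusted p = 0.0101 and 0.00726).

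Of 17 adaptors and kinases, 1 was higher and 1 lower at 4 h, and 0 were higher and 4 lower at 18 h over both strains. Irak2, a kinase downstream of Myd88, was lower at both times (-1.18 ± 0.19 and -1.02 ± 0.19 by limma, adjusted p = 0.0093 and 0.013). Ikbke, a kinase upstream of interferon regulatory factors, was lower at 18 h (-1.03 ± 0.13, adjusted p = 0.00187), with Traf3 (-0.59) and Tab2 (-0.53). Traf6, the ubiquitin ligase that Irak kinases engage, was higher at 4 h (0.46 ± 0.11, limma, adjusted p = 0.0487).

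Of 6 inhibitors, Socs1, a suppressor of cytokine signalling, had the largest change. It went from 0.89 and 1.15 in C57BL6 mock to 6.13 and 6.32 after 4 h and 4.91 and 4.84 after 18 h, and from 1.05 and 0.98 in Balb/c mock to 5.82 and 5.42 and then 4.52 and 4.82. Its change over both strains was 4.91 ± 0.14 at 4 h and 3.75 ± 0.14 at 18 h (limma, adjusted p = 7.22e-06 and 1.09e-05). Irak3, which blocks Irak signalling, was lower at both times (-0.84 and -0.81), and Il1rl1, the IL-33 receptor, was higher at 18 h (1.78).

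Of 6 transcription factors, 0 were called at 4 h and 1 at 18 h over both strains. Irf7, which drives type I interferon genes downstream of Tlr7 and Tlr9, was at 4.03 and 3.82 in C57BL6 mock and 4.06 and 4.28 in Balb/c mock. After 18 h it was at 2.72 and 2.57 in C57BL6 and 2.42 and 3.13 in Balb/c, below every mock array. The 18 h change was -1.34 ± 0.16 (limma, adjusted p = 0.00184), and 18 h was also below 4 h (-1.84 ± 0.16, adjusted p = 0.00144). Nfkb1, a subunit of NF-kappa-B, was lower at 18 h than at 4 h (-0.50 ± 0.10, limma, adjusted p = 0.0327).

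Between the strains 3 of the 39 were called over all conditions by limma, a smaller share than the 17.9% of all genes, and they are named here after their values were seen. Tirap, the adaptor that brings Myd88 to Tlr2 and Tlr4, was higher in Balb/c (0.41 ± 0.08, adjusted p = 0.0131). Irf5 (-0.51 ± 0.10, adjusted p = 0.00987) and the kinase Map3k7 (-0.33 ± 0.09, adjusted p = 0.039) were lower.

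**Figure D4:**
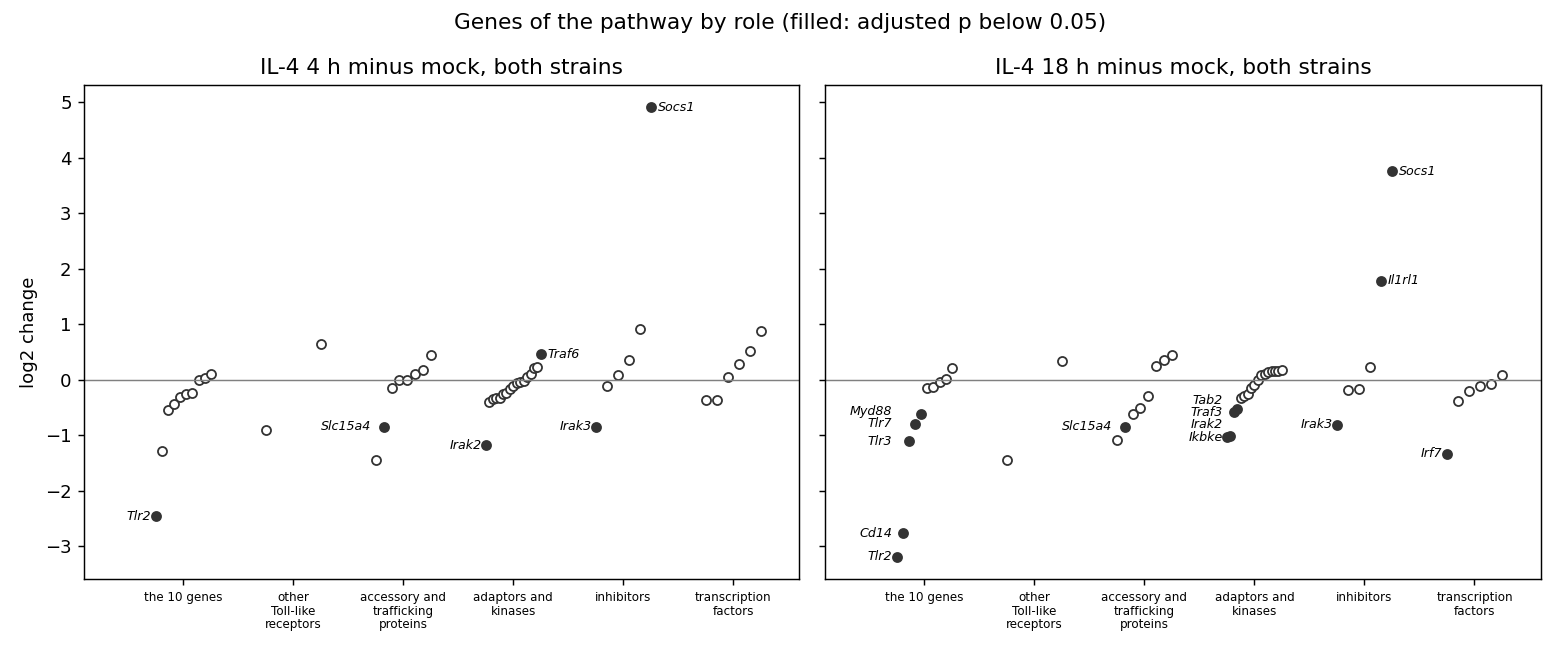
Log2 change over both strains after 4 h (left) and 18 h (right) of IL-4 against mock for the 10 genes and 39 other genes of the pathway, grouped by role along the x axis and ordered by size within a group. Filled circles had an adjusted p below 0.05 and are named: Tlr2 and Cd14 are the lowest at 18 h and Socs1 the highest at both times.

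The genes whose levels followed each member called for IL-4 over both strains most closely over the 12 arrays were found by Pearson's r among 14147 genes, as a description of arrays that share their conditions. Tlr2 was followed by Dennd1c (r = 0.988), Srr (0.975) and Plxna2 (0.972). Tlr3 was followed by the interferon-inducible genes Mx2 (r = 0.963) and Oasl1 (0.962), and by Srpk3 (0.958). Tlr7 was followed by Neurl3 (r = 0.968), Abl1 and Rab33b (0.96 each).

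Cd14 was followed by Sdc3 (r = 0.975), a transcript with no gene name in the files (0.963) and Cadps (0.953). Myd88 was followed by Trim30d (r = 0.973), Traf3ip3 (0.969) and a clone with no gene name (0.964).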

How the data were processed

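Total RNA of 12 samples was labelled with Cy3 and hybridised to Agilent arrays. The deposited scanner files give each spot's processed green intensity, on a linear scale and already background-subtracted, per the file headers. The software was version 9.5.1.1 of Agilent Feature Extraction, as the submitters' processing notes name it. The authors also deposited a linear ratio per probe, whose denominator is not given in the sources used here. On the log2 scale the deposited ratios tracked the processed signal divided by the mean C57BL6 mock signal (r = 0.985 to 0.998; a mean of logs was tried first as divisor), and they served as an alternative.

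Control and outlier spots were left out, spots of a probe averaged on the log2 scale, and the 75th percentile of each array over 41174 probes subtracted. A probe was kept where some group had it well above background on each of its arrays (27373 probes), and the probe with the highest mean stood for each of 18427 genes. How outlier spots entered that flag was changed once, before any change of these genes was computed, after its probe count had been compared with an earlier description. Names came from RefSeq (GRCm38.p6) by accession, 17629, current symbol, 3978, or older symbol, 1871, and 3895 probes kept the file's name. The 6 group means were estimated by lmFit and eBayes (limma, version 3.58.1; R, version 4.3.3), with Benjamini-Hochberg adjustment over all genes and 6 residual degrees of freedom, in 11 comparisons over all 12 arrays. The fit was tested on simulated data. All 10 genes are named whatever the outcome, and genes of the pathway lists where called.

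Alternatives were background correction (normexp; its maximum likelihood form was tried on 1 array and not used), quantile or median scaling, the filter, the choice of probe, slide as a random block, the replicate block, only the arrays compared, the deposited ratios and leaving out each array. Replicate numbers were treated as pairs within a strain, since the series text describes 2 independent experiments. Same-numbered arrays also deviated together in all 6 pairs of groups (correlation 0.155 to 0.653). No label ties a replicate number to an experiment, and the part of slide in these correlations was not tested. That a block raises the counts was known from earlier results when this was decided.

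The members and the lists were chosen with earlier results of these data known, and the spelling of the promoter motifs after the matches of 10 spellings were seen. The number of arrays limits the precision.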

Additional observations from a re-analysis of the deposited data

Results flagged for a closer look

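Each of the 10 genes was looked at after 4 h and again after 18 h of IL-4. In 5 of these cases both Balb/c arrays lay on the opposite side of their strain's mock mean from both C57BL6 arrays. The share of all genes with this pattern is not given here, so the 5 cases cannot be set against a background. The strain difference of the change was tested with limma and called for none of them, nor for any other gene tested. For Tlr1 the strain difference of the change (Balb/c minus C57BL6, log2) was -0.55 at 4 h (adjusted p = 1) and -0.64 at 18 h (adjusted p = 0.921). The Tlr1 arrays deviated by 0.29 and 0.48 in C57BL6 and by -0.09 and -0.26 in Balb/c at 4 h, and by 0.48 and 0.60 against -0.0034 and -0.20 at 18 h.

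For Tlr4 the difference was 0.40 at 4 h (limma, adjusted p = 1) and 0.68 at 18 h (adjusted p = 0.921). At 18 h its C57BL6 arrays deviated by -0.51 and -0.47 and its Balb/c arrays by 0.36 and 0.02. For Tlr9 the difference was 0.31 at 4 h (limma, adjusted p = 1), with arrays at -0.20 and -0.06 in C57BL6 and 0.26 and 0.10 in Balb/c.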

How the results depend on the processing

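No called change of the 10 genes reversed its fitted sign under any alternative. Signs were counted without the shift that normexp gave all genes. With normexp the median change of all genes at 18 h over both strains was -0.36. Myd88 (-0.27) lay above that median and Tlr7 (-0.44) a little below it, so relative to the typical gene the Myd88 direction did not hold. Over both strains, the Tlr2 calls at 4 h and 18 h, the Cd14 call at 18 h and the Tlr4 strain call held under every alternative run. With normexp correction, 1 of the 10 genes was called in C57BL6 at 18 h (0.7% of all genes) and 0 in Balb/c at 4 h (0.0163%). It called 3 over both strains at 18 h (3.4%) and 1 between strains over all conditions (2.65%). That correction gave array medians of 7.22 to 10.18 log2 units, beside 6.10 to 6.92 for the processed signal, and moved the median change of all genes to between -0.43 and 0.25, so its changes are relative to that shift. Without the filter 1 was called in Balb/c at 18 h (1.59% of all genes). With probes above background on all 12 arrays 1 was called for 18 h against 4 h (5.8%). The slide block called 2 over both strains at 4 h (10.2%) and 2 for 18 h against 4 h (6.83%). With only the arrays compared, 0 were called in C57BL6 at 4 h (0.374% of all genes) and in Balb/c at 4 h (0%) and 18 h (0.0923%). The replicate block, which pairs same-numbered arrays, called 4 and 6 in C57BL6, 3 and 5 in Balb/c, 3 over both strains at 4 h, 4 for 18 h against 4 h; the count of 5 over both strains at 18 h did not change. The same fit gave 4 between strains in mock (21.2% of all genes) and 6 over all conditions (37.8%), but these are no test of strain. The pairs lie within a strain, so the block removes the spread between replicate numbers that strain is judged against. Leaving out 1 array gave 1 to 2 calls in C57BL6 at 18 h, 0 to 1 in Balb/c at 4 h, 1 to 3 in Balb/c at 18 h, 1 to 2 over both strains at 4 h, 3 to 5 at 18 h, 0 to 1 for 18 h against 4 h, 2 to 3 between strains, 1 in C57BL6 at 4 h, and 0 between strains in mock and for the strain difference of either change. The cause was not tested, except that fits on fewer arrays have fewer samples. Over all genes the percentage called moved by over 1.5 times as well: across the alternatives other than leaving out an array it ran from 0.13 to 16.7 and 0.7 to 17.6 in C57BL6 at 4 h and 18 h, 0 to 7.13 and 0.0923 to 14.8 in Balb/c, 0.738 to 23.4 and 3.4 to 25 over both strains, 0.711 to 16.6 for 18 h against 4 h, and, with the replicate block left out, 0.163 to 5.7 between strains in mock and 2.65 to 19.2 over all conditions. With 2 arrays a group, the SE of a change within a strain ran from 0.14 for Myd88 to 0.50 for Cd14, which limits what could be called.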
